A study of Homo sapiens with 2 samples.

Results

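The 10 genes described here encode enzymes that carry glucose carbon through glycolysis to lactate, together with the transporter that exports the lactate: GPI, PFKM, PFKP, ALDOA, GAPDH, PGAM1, ENO1, PKM, LDHA and SLC16A3. They were chosen by symbol, and all 10 were found among the 36601 genes listed. The cells were A549, a line grown from a human lung adenocarcinoma, and their RNA was read cell by cell in 2 droplet libraries. The squashed library came from cells confined with polydimethylsiloxane micropillars, and the control library from cells in 2D culture. In both, live cells that had lost a chromosome reporter were sorted after 48 h of recovery, so the controls share that loss and the sort; the labels give both the same batch date. Each group is 1 library, and the ratios below compare those libraries, with no replicate error and no test. The study asks what past confinement leaves behind in such cells.

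Glycolysis splits each glucose into pyruvate in the cytosol and yields ATP without oxygen. Lactate dehydrogenase then turns pyruvate into lactate and restores the NAD+ that the GAPDH step consumes, and monocarboxylate transporters carry lactate and a proton out of the cell. Many tumour lines run this route even when oxygen is present. The hypoxia-inducible factors (HIF) raise many of these genes, and they bind a short core motif in promoters and enhancers.

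In promoters the sequence ACGTG, called the core below, was looked up on either strand in the 250 bases before each gene's canonical start. Other forms of the motif were not looked up, so a window without ACGTG may still hold one. ACGTG lay in 5 of the 10 genes (ALDOA, GAPDH, PGAM1, LDHA and SLC16A3), against 25.9% of 4302 measured genes and 18.03% of 36363 genes with a start. The palindrome CACGTG, an E-box that contains the core on both strands, lay only in LDHA among the 10, against 9.37% of measured genes. The windows of 3 genes are shown because they span the range of the results: PGAM1 had the lowest ratio of the squashed over the control library, GPI the highest, and LDHA the most core motifs. The sequences are GRCh38, read 5′ to 3′ in the direction of the gene, with matches to the core on either strand in capitals. A match is a description of the letters, not a binding site.
PGAM1, chr10:97425941-97426190, plus strand: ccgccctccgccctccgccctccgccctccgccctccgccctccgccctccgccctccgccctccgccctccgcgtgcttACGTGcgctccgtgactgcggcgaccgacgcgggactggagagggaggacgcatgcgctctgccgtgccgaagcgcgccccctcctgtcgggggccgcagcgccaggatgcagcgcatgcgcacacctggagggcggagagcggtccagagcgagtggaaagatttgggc
GPI, chr19:34364946-34365195, plus strand: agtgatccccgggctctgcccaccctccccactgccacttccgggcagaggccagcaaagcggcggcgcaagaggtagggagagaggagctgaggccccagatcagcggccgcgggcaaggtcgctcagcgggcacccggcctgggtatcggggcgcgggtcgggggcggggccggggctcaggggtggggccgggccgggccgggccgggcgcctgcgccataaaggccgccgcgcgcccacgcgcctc
LDHA, chr11:18394313-18394562, plus strand: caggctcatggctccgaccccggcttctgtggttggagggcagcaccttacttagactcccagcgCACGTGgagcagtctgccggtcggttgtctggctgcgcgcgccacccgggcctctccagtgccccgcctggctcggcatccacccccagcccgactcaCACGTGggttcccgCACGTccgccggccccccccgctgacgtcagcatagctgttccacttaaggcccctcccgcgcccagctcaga
The LDHA window holds the core at 3 places, 2 of them an E-box. The PGAM1 window begins with a repeat of the unit ccgccct and holds ACGTG once. The GPI window holds ACGTG nowhere, and other forms of the motif were not looked up in it.

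After filtering, 1930 squashed and 1906 control cells remained, with 23328323 and 27482392 unique molecular identifiers (UMIs, each the tag of 1 captured molecule) and medians of 9331 and 12459 UMIs per cell. The filter kept 61.6% of 3132 squashed barcodes and 74.0% of 2574 control barcodes. Median genes per cell were 1790 in squashed and 2598 in control cells, so the squashed library was less complex. The part of this difference in the ratios below was not tested. The median mitochondrial share was 7.10% in squashed and 5.77% in control cells. The libraries list 4 barcodes in common. The epithelial keratin KRT8 stood at 1168 UMIs per 1000000 (CPM) in squashed and 796 CPM in control cells and KRT18 at 557 and 1691 CPM, whereas EPCAM and CLDN4, also epithelial, were under 1 CPM in both. The fibroblast, immune, endothelial and erythroid marker lists summed to 6.39, 0.686, 0.0429 and 0.0429 CPM in the squashed library and to 7.82, 0.0728, 0.0728 and 0 CPM in the control library. No UMI in either library was found for 1 of 6 fibroblast, 5 of 7 immune, 3 of 5 endothelial and 3 of 4 erythroid markers, among them PTPRC, CDH5 and HBB.

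The 10 genes together made up 1.12% of all UMIs in the squashed library and 0.946% in the control library, a log2 ratio of 0.24 (95% counting interval 0.23 to 0.25). All intervals here are exact and cover counting error only. Of the 10 genes, 9 had a ratio above 0, against 31.6% of the 4307 measured genes (those that reached 20 CPM in one library or both). Only PGAM1, lower in the squashed library, lay at least 1.5-fold from equal. Of all measured genes, 12.4% were lower by that size and 3.48% higher. The median log2 ratio of the 10 genes was 0.24 and that of all measured genes -0.14. All 10 passed the filter of 20 CPM, but PFKM, ALDOA and SLC16A3 reached it in the squashed library alone, which fixes their ratio above 0, so the count and the median are a description. Scaling by the trimmed mean of M-values (TMM) moved the median of all genes to 0.02, and GPI and SLC16A3 then passed 1.5-fold higher, where 5.67% of measured genes did; PGAM1 remained the only one lower by that size, against 8.8%.

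**Figure D1:**
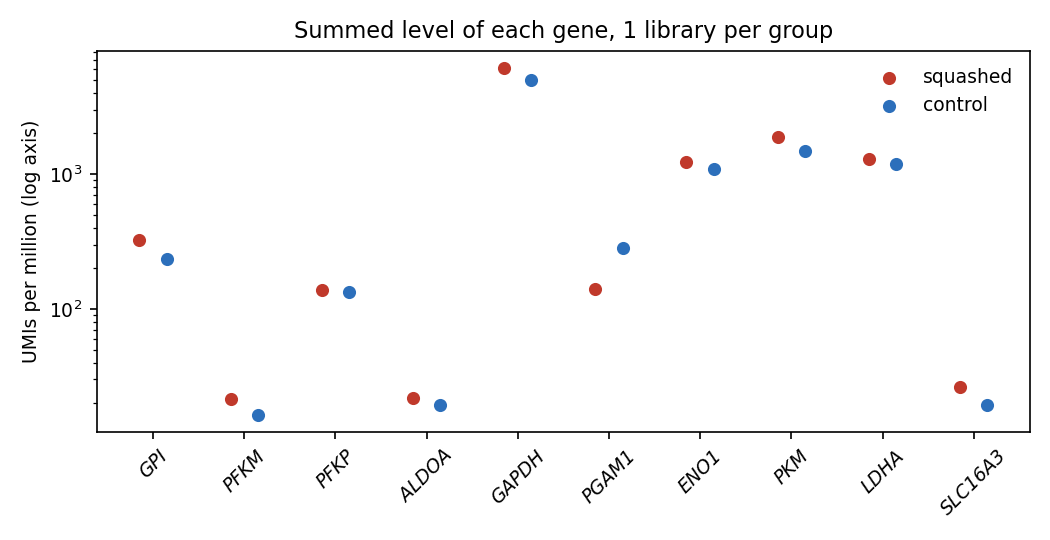
Level of each of the 10 genes in CPM (log axis), from the UMI sum of each library, with the squashed library on the left of each pair; there is 1 point per library and no replicate. GAPDH stands highest at 6100 and 4984 CPM, and PGAM1, at 142 and 285 CPM, is the only gene whose squashed point lies far below its control point.

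The first steps prepare glucose for cleavage. GPI, which turns glucose 6-phosphate into fructose 6-phosphate, stood at 327 CPM in squashed and 236 CPM in control cells (log2 ratio 0.47, 0.42 to 0.52). A lower ratio was found in 94.9% of measured genes. Phosphofructokinase commits the sugar to glycolysis and has a muscle (PFKM), a platelet (PFKP) and a liver (PFKL) form. PFKP stood at 137 CPM in squashed and 134 CPM in control cells (0.03, -0.04 to 0.10), a difference within counting error. PFKM stood at 21.4 and 16.5 CPM (0.38, 0.19 to 0.56), whereas PFKL stood at 10.7 CPM in squashed and 15.4 CPM in control cells (-0.53, -0.76 to -0.30). PFKP thus made up 81.03% of the UMIs of the 3 forms in the squashed library (79.8 to 82.2) and 80.8% in the control library (79.6 to 81.9). The share of PFKM was 12.7% (11.6 to 13.7) in squashed and 9.92% (9.07 to 10.8) in control cells, and that of PFKL 6.31% (5.57 to 7.12) and 9.28% (8.46 to 10.2). These shares lie within a library and do not depend on its scaling. Under the stricter cell filter the share of PFKL was 5.19% in squashed and 5.82% in control cells, with overlapping intervals, and that of PFKM 10.9% and 7.31%. The share of PFKP was then 83.9% (82.4 to 85.4) in squashed and 86.9% (85.6 to 88.1) in control cells, so its likeness between the libraries depended on the filter.

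ALDOA, the aldolase that cleaves the doubly phosphorylated sugar, had only 22.03 CPM in squashed and 19.5 CPM in control cells (0.18, 0.00 to 0.36). In GENCODE 44, 42.8% of the exon bases of ALDOA (ENSG00000149925, chr16:30064164-30070457) are also exon bases of AC093512.2 on the same strand. That gene held 2 UMIs in each library. The sources used here do not say how reads in the shared bases were assigned, so the level of ALDOA is uncertain. Its paralog ALDOC had 17 UMIs in the squashed and 10 in the control library. Of the 10 genes ALDOA is the only one with exon bases shared on its own strand.

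GAPDH, which oxidises the triose and reduces NAD+, was the most abundant of the 10 in both libraries, at 6100 CPM in squashed and 4984 CPM in control cells (0.29, 0.28 to 0.30). It alone held more UMIs than the 9 others together, which summed to 5050 and 4475 CPM. One 3′ end tag is counted per molecule, so these levels were not divided by transcript length. The next enzyme, PGK1, forms the first ATP of the route and is not one of the 10; it stood at 509 and 419 CPM (0.28, 0.24 to 0.32). TPI1, which interconverts the triose phosphates before GAPDH, stood at 965 and 905 CPM (0.09, 0.07 to 0.12).

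PGAM1, the mutase that moves the phosphate group of 3-phosphoglycerate, went the other way. It stood at 142 CPM in squashed and 285 CPM in control cells, from 3303 and 7827 UMIs (-1.01, -1.07 to -0.95), a 2.01-fold lower level. A level lower by 2-fold or more was found in 5.11% of measured genes and a higher one of that size in 1.09%, and 5.02% had a ratio under that of PGAM1. ENO1, the enolase that acts next, stood at 1223 CPM in squashed and 1082 CPM in control cells (0.18, 0.15 to 0.20). PGAM1 accordingly made up 10.4% of the UMIs of PGAM1 and ENO1 in the squashed library (10.04 to 10.7) and 20.8% in the control library (20.4 to 21.3). Against PGK1, the enzyme before it, its share was 21.8% (21.1 to 22.4) in squashed and 40.4% (39.7 to 41.1) in control cells. The mutase therefore lay lower against both neighbours in the pathway, whatever the scaling.

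**Figure D2:**
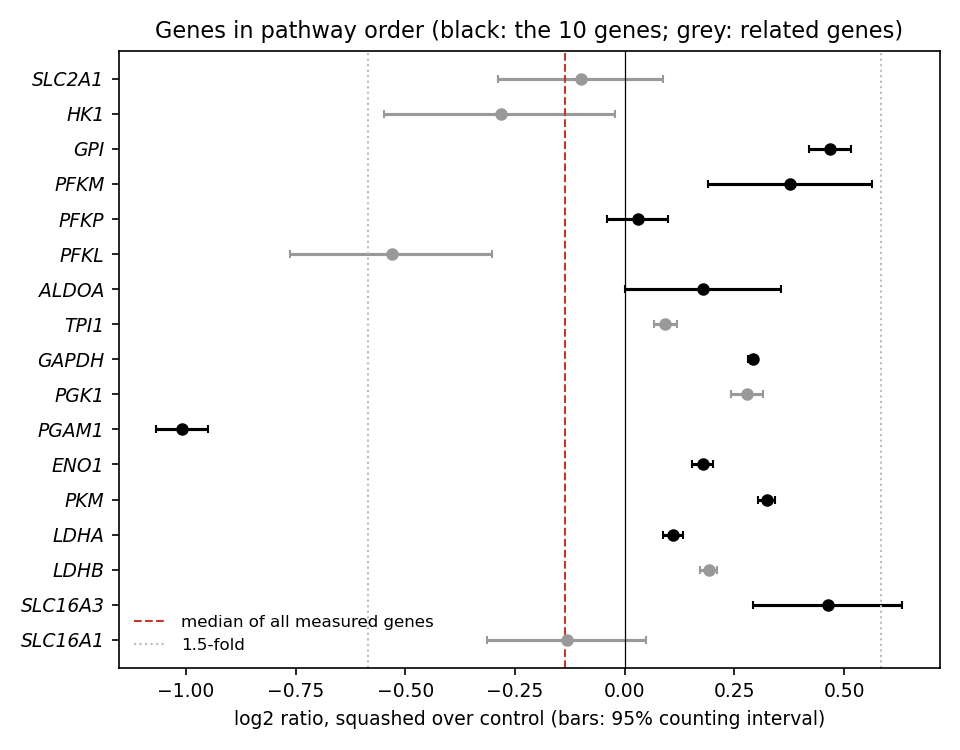
Log2 ratio of the squashed over the control library for genes in pathway order from glucose uptake (top) to lactate export (bottom); bars are exact 95% counting intervals, black points are the 10 genes and grey points related genes. PGAM1 lies at -1.01, left of the 1.5-fold line, and the other 9 black points lie between 0.03 and 0.47, right of the median of all measured genes at -0.14.

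PGAM1 (ENSG00000171314) spans chr10:97426191-97433444 on the plus strand. The 186 measured genes of chromosome 10 had a median log2 ratio of -0.11, and PFKP, on the same chromosome, lay at 0.03. Its canonical transcript has 1802 nt and a GC content of 52.7%. Among the 640 measured genes with 50 to 55% GC, 3.75% were at least 2-fold lower, against 16.9% of the 314 genes with 60 to 65%. No other listed gene shares its exon bases, but GENCODE 44 annotates 13 pseudogenes of PGAM1 by name. GAPDH has 65 such copies, LDHA 6, PKM 5, ENO1 4 and ALDOA 2, and counts of these genes stay uncertain where reads fell to a near-identical copy. The part of such copies in the PGAM1 ratio was not tested. PGAM4, a close copy of the gene, held 4 UMIs in the squashed and 1 in the control library.

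The lower level of PGAM1 was spread over the cells. In cells thinned to 10000 UMIs, of which there were 906 squashed and 1190 control cells, it averaged 1.40 UMIs per squashed cell and 2.93 per control cell. No PGAM1 UMI was found in 28.04% of squashed and 9.16% of control cells, and at most 6 UMIs in any squashed cell, against 13 in the highest control cell. The variance over the mean, which is 1 for counting alone, was 1.14 in squashed and 1.45 in control cells. At 2000 UMIs per cell the share with a PGAM1 UMI was 23.1% (21.2 to 25.1) in squashed and 43.2% (40.9 to 45.5) in control cells, and without thinning it was 66.9% and 88.9%. All cells are of 1 line, so no cell type that lacks the gene was at hand as a background, and the level of ambient RNA is unknown.

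**Figure D3:**
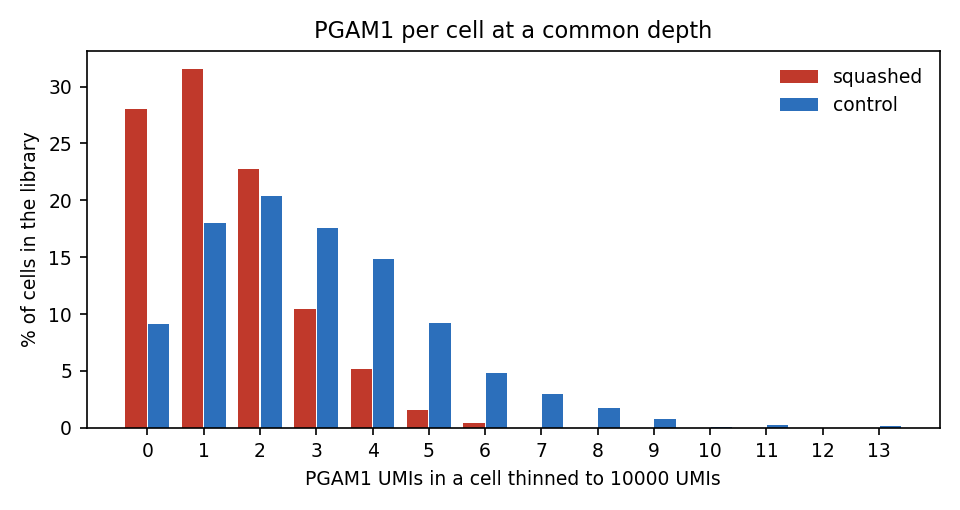
Share of cells (%) by number of PGAM1 UMIs in cells thinned to 10000 UMIs, with 906 squashed cells (left bars) and 1190 control cells (right bars). Squashed cells peak at 1 UMI and end at 6, and control cells peak at 2 and reach 13.

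The last steps yield pyruvate and lactate. PKM, the pyruvate kinase, stood at 1866 CPM in squashed and 1491 CPM in control cells (0.32, 0.30 to 0.34); tags at the 3′ end do not separate its M1 and M2 splice forms. LDHA, the lactate dehydrogenase subunit that favours lactate, stood at 1286 and 1191 CPM (0.11, 0.09 to 0.13), and its partner LDHB at 1685 and 1476 CPM (0.19, 0.17 to 0.21). LDHA made up 43.3% of the UMIs of the pair in the squashed library (42.9 to 43.6) and 44.7% in the control library (44.3 to 45.02). SLC16A3 encodes MCT4, a lactate exporter, and stood at 26.6 CPM in squashed and 19.3 CPM in control cells (0.46, 0.29 to 0.63). SLC16A1, which encodes MCT1, stood at 19.2 and 21.1 CPM (-0.13, -0.31 to 0.05). SLC16A3 thus held 58.0% (54.97 to 61.0) of the UMIs of both transporters in squashed and 47.7% (44.8 to 50.7) in control cells. The same share was 54.9% (50.6 to 59.05) and 43.4% (39.4 to 47.6) with the stricter cell filter. In part, SLC16A3 exons overlap those of CSNK1D on the opposite strand (5.22% of its bases), and PFKM exons those of SENP1 (7.12%). The same holds for GAPDH with AC006064.4 (17.6%), ALDOA with AC093512.1 (13.6%) and ENO1 with ENO1-AS1 (2.42%). AC006064.4 held 145 UMIs in the squashed and 77 in the control library. Strand use in counting is not stated in the sources used here.

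In both libraries the order of levels was GAPDH, PKM, LDHA and ENO1 at the top. PGAM1 had rank 6 in the squashed and rank 5 in the control library, where it changed places with GPI, and PFKP had rank 7 in both. ALDOA, SLC16A3 and PFKM made up the lowest ranks, and in the control library ALDOA at 19.5 CPM and SLC16A3 at 19.3 CPM did not differ beyond counting error.

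The share of UMIs from the 10 genes also varied with the phase call of a cell. In cells called G2/M it was 1.08% in the squashed and 1.05% in the control library, whereas in cells called G1 it was 1.16% and 0.814%. The ratio between the libraries was thus 0.04 (0.03 to 0.05) in cells called G2/M and 0.51 (0.50 to 0.52) in cells called G1. In the squashed library 6 of the 10 genes were higher in G2/M than in G1 calls, and in the control library 7. The log2 ratio of G2/M over G1 in the squashed library was 0.26 for PFKP, 0.59 for LDHA, 0.36 for ENO1 and 0.28 for PGAM1. In the control library it was 0.99 for PFKP, 0.97 for LDHA, 0.91 for ENO1 and 0.73 for PGAM1. Of the 10 genes, 8 (all but PFKM and SLC16A3) had a smaller such ratio in the squashed library. For ALDOA the intervals overlapped (-0.16 to 0.37 in squashed, -0.02 to 0.51 in control cells). Counts of G2/M over G1, here and below, were not made over all measured genes. They therefore do not show a trait of the 10 genes. PKM lay lower in G2/M than in G1 calls in both libraries (-0.46 in squashed, -0.11 in control cells), and GAPDH differed in sign (-0.26 in squashed, 0.24 in control cells). Calls of S were rare, at 95 squashed and 75 control cells.

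The cells called G1 were not alike in the libraries. Leiden clustering, run after centring each gene per library and leaving out these genes and their pathway lists, gave 7 states, of which 5 held at least 50 cells of each library. State 2, led by TAGLN, MAP1B and CRYAB, held 66.5% of squashed G1 calls and 9.94% of control G1 calls. State 4, led by RASSF8 and MED31, with 2 squashed and 169 control cells, held 25.8% of control G1 calls. Both states were low in genes per cell. The median was 1297 genes in squashed and 1709 in control cells of state 2, and 1228 in control cells of state 4. In state 3, also common among G1 calls, it was 3953 in squashed and 4110 in control cells. Without states 2 and 4, the 10 genes made up 0.896% of UMIs in squashed and 0.693% in control G1 calls (0.37, 0.35 to 0.39). These shares in G1 calls lay below the share over all G2/M calls in both libraries. Median UMIs per cell were 9051 in squashed and 14361 in control G1 calls, and median genes per cell 1441 and 2681. The median mitochondrial share was 8.63% in squashed and 10.9% in control G1 calls, and 5.71% and 4.80% in G2/M calls. With mitochondrial UMIs left out of the totals the ratio of G2/M over G1 was -0.14 in squashed and 0.29 in control cells, against -0.10 and 0.37 with them. With ribosomal protein genes also left out it was -0.26 in squashed and 0.22 in control cells, and 4 of the 10 genes in the squashed library and 7 in the control library were higher in G2/M calls, GPI and ALDOA turning to -0.02 and -0.05 in the squashed library. The part of other cell differences in these values was not tested.

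**Figure D4:**
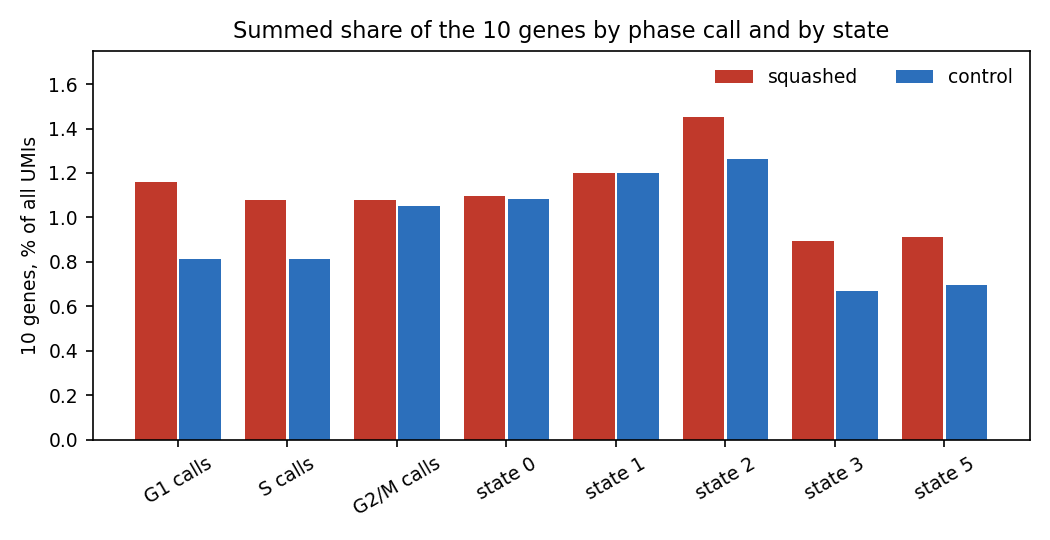
Share of all UMIs (%) taken by the 10 genes in cells of each phase call and each state with at least 50 cells per library, squashed bars on the left and control bars on the right. The bars are level in G2/M calls (1.08% and 1.05%) and in state 1 (1.20% in both), and apart in G1 calls (1.16% and 0.814%) and in state 3 (0.894% and 0.668%).

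The ratio also varied between states. State 0, led by TOP2A, BUB1 and HMMR of dividing cells, had 1.10% in squashed and 1.08% in control cells (0.02, 0.01 to 0.03), and state 1, led by MTRNR2L8 and MT-ND6 with PTTG1 and CDC20, had 1.20% in both (0.00, -0.02 to 0.02). State 3, led by the nuclear RNAs NEAT1 and MALAT1, had 0.894% in squashed and 0.668% in control cells (0.42, 0.40 to 0.44). State 5, led by the histone gene HIST1H4C with CDK1 and CENPF, had 0.911% in squashed and 0.697% in control cells (0.39, 0.36 to 0.42), although 68 of its 81 squashed and 59 of its 66 control cells were called G2/M. Of the 5 states, state 2 had the highest shares, 1.45% and 1.26% (0.20, 0.18 to 0.23), in 645 squashed and 99 control cells. It also had the lowest median genes per cell of the 5 in both libraries. ENO1 lay at 0.56 in state 3 and 0.49 in state 5, but at -0.06 in state 0 and 0.02 in state 1. GPI differed little between them, from 0.32 in state 2 to 0.53 in state 5. PFKP, at 0.03 over all cells, differed in sign between phase calls. It lay at 0.55 (0.43 to 0.68) in G1 calls and at -0.18 (-0.27 to -0.09) in G2/M calls. PGAM1 was lower in the squashed library in all 5 states, from -1.45 (-1.62 to -1.29) in state 2 to -0.71 (-0.83 to -0.59) in state 3, and in each of the 3 phase calls. Differences between states were not tested.

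**Figure D5:**
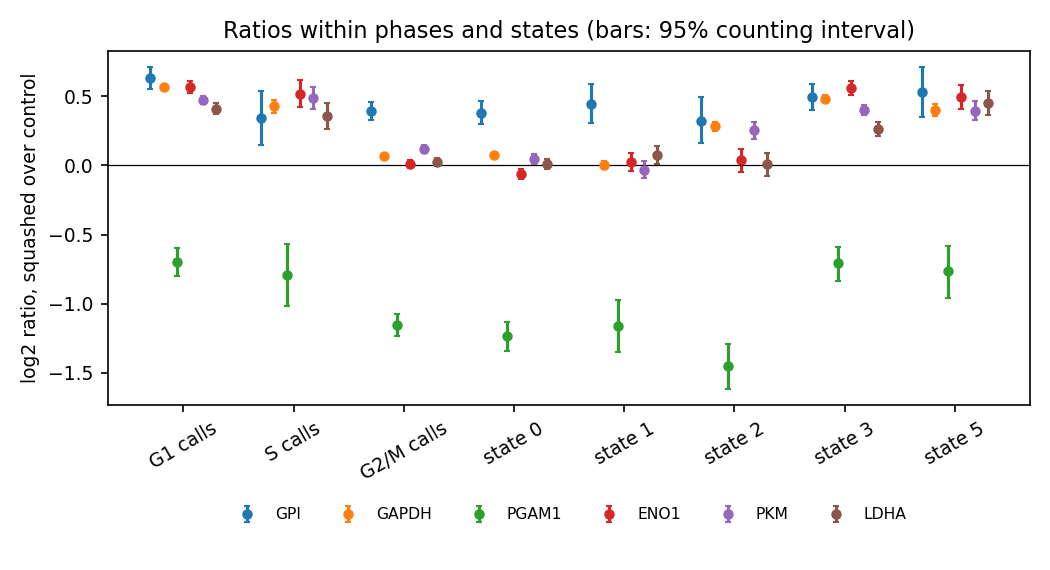
Log2 ratio of the squashed over the control library for 6 of the 10 genes within phase calls and states, with exact 95% counting intervals as bars. PGAM1 lies between -1.45 and -0.70 throughout, GPI between 0.32 and 0.63, and ENO1 is near 0 in G2/M calls and in states 0, 1 and 2 but at 0.49 or above in G1 and S calls and in states 3 and 5.

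The genes followed the rest of the group to different degrees from cell to cell. At 10000 UMIs per cell, Pearson's r of a gene with the sum of the others was 0.31 in squashed and 0.52 in control cells for ENO1, and 0.31 and 0.36 for GAPDH, the highest of the 10 genes in both libraries. At 2000 UMIs per cell the order differed, with PKM highest in squashed cells (0.24 in squashed, 0.09 in control cells), and ENO1 highest in control cells (0.16 in squashed, 0.25 in control cells). For PGAM1 the r at 10000 UMIs per cell was 0.07 in squashed and 0.32 in control cells, and at 2000 it was 0.02 and 0.12. PGAM1 had fewer UMIs per cell in the squashed library. At 10000 UMIs per cell, ENO1 and LDHA had an r of 0.24 in squashed and 0.43 in control cells, whereas GAPDH and LDHA had 0.03 in both. Summed over the 10 genes, a cell at this depth spent a median of 1.06% of its UMIs in the squashed library (lowest 0.37%, highest 2.57%) and 0.97% in the control library (0.31% to 2.29%). Among the 8 genes most like that sum over cells, of 1796 with at least 50 CPM in both libraries, were RPS14, ANXA2, RPS23, ACTG1, HINT1, RPL35 and BTF3. RPS14, a ribosomal protein gene, led with an r of 0.51 in squashed and 0.62 in control cells, and ANXA2, a membrane-binding annexin, had 0.42 and 0.61. The median r of all 1796 genes was -0.02 in squashed and 0.06 in control cells. These r values describe cells of 1 library each, which share its preparation, and carry no test.

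Genes around the pathway are given by list. Of 3 further measured glycolytic enzymes (TPI1, PGK1 and ENO3) all had ratios above 0, with a median of 0.28; ENO3 reached 20 CPM in the squashed library alone, which fixes its sign. ENO3, an enolase better known from muscle, stood at 22.0 CPM in squashed and 17.8 CPM in control cells (0.30, 0.12 to 0.48). None of 6 genes of glucose uptake and phosphorylation reached 20 CPM. Among them HK1, a hexokinase, stood at 8.79 and 10.7 CPM, and HK2 had 5 UMIs in the squashed and 1 in the control library. Of the enzymes that set fructose 2,6-bisphosphate, the activator of phosphofructokinase, PFKFB3 stood at 31.4 and 37.9 CPM (-0.27, -0.41 to -0.13) and TIGAR at 37.2 and 32.2 CPM (0.21, 0.07 to 0.34).

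Genes of the mitochondrial use of pyruvate and of the side branches mostly had ratios below 0, as did all measured genes at the median. Of 8 measured genes of pyruvate and lactate, 2 had ratios above 0, with a median of -0.12, and none lay 1.5-fold from equal. The list holds 18 genes, and those under 20 CPM are not in that count. Among them PDK2 lay at -1.56 (82 UMIs in squashed, 287 in control cells) and PDK4 at -1.12 (18 and 47). LDHC, with 3 and 0 UMIs, lay the other way. SLC16A1 reached 20 CPM in the control library alone, which fixes its ratio below 0. MPC2, a subunit of the mitochondrial pyruvate carrier, stood at 111 CPM in squashed and 150.1 CPM in control cells (-0.44, -0.51 to -0.37), and PDHB of pyruvate dehydrogenase at 59.4 and 72.1 CPM (-0.28, -0.38 to -0.18). Of 5 measured genes of the pentose phosphate pathway 1 lay above 0. That was TALDO1, transaldolase, at 532 and 467 CPM (0.19, 0.15 to 0.23). TKT, transketolase, stood at 1511 and 1827 CPM (-0.27, -0.29 to -0.25), PGD at 480 and 543 CPM (-0.18, -0.21 to -0.14) and RPE at 41.8 and 44.6 CPM (-0.10, -0.22 to 0.03). Of 8 measured genes that branch to serine, glycogen or glycerol and hexosamines, 1 was at least 1.5-fold lower, a share near the 12.4% of all measured genes. It was GFPT1, which draws fructose 6-phosphate into hexosamine synthesis, at 20.7 and 34.4 CPM (-0.73, -0.89 to -0.57). PYGB and PYGL, glycogen phosphorylases, lay at -0.29 and -0.21, and PSAT1 of serine synthesis at 0.18.

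Hypoxia-responsive genes were mixed in direction. Of 7 measured members of that list 3 had ratios above 0, 3 were at least 1.5-fold lower, 1 was higher by that size and the median was -0.54, against 12.4% lower and 3.48% higher among all measured genes. DDIT4 and ADM reached 20 CPM in the control library alone, which fixes their ratios below 0. DDIT4, an inhibitor of mTOR signalling, stood at 18.6 CPM in squashed and 64.6 CPM in control cells, BNIP3 of mitophagy at 21.3 and 45.3 CPM and the peptide hormone gene ADM at 16.3 and 31.4 CPM. P4HA1, a collagen prolyl hydroxylase, stood at 37.7 and 20.3 CPM. CA9, a carbonic anhydrase often used as a hypoxia marker, had no UMI in either library.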

How the data were processed

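Libraries (10x Genomics 3′ kit 3.1) were read on a NovaSeq 6000, per the labels' design text. The deposited files hold raw counts of UMIs per gene and barcode, with no normalization, per the file headers. Counting used Cell Ranger (5.0.1 per the labels' design text, 4.0.0 per the file headers) against GRCh38. The sources used here do not give the rule that called barcodes cells. Per the submitters' processing notes, R 4.3.2 was among the tools.

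Cells with at least 1000 UMIs, 500 genes and at most 20% mitochondrial UMIs were kept. Scrublet in scanpy marked 15 squashed and 16 control cells as doublets; they stayed in the sums, and an alternative drops them. UMIs were summed per library and scaled to CPM. The log2 ratio used a prior of 0.5 count, and intervals are exact Clopper-Pearson intervals at 95%, which cover counting error only. With 1 library per group no test was made. Alternatives were TMM and median-of-ratios scaling (computed in Python), a stricter cell filter (2000 UMIs, 1000 genes, at most 10% mitochondrial), no filter, other priors and thresholds, and cells by phase, state or depth. Cells were thinned to 2000 UMIs (1782 squashed, 1825 control) or 10000. Phases were called with scanpy from G1/S and G2/M lists on cells thinned to 2000 UMIs. States came from 2000 variable genes, 30 components, 15 neighbours and Leiden resolution 0.5. Positions, lengths and GC came from GENCODE 44, and promoter windows from the hg38 genome. The ratio step was tested on simulated data. Software was scanpy 1.11.5 with leidenalg 0.10.2, matplotlib 3.10.9, scipy 1.17.1, numpy 2.4.6 and pandas 2.3.3, under Python 3.11.15.

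The genes and lists were chosen with earlier results of these data known. Named genes are the 10 genes, up to 4 measured genes with the largest absolute ratio of each related list, fixed paralogs and the 8 genes most like the summed level over cells, of which 1 is not reported here. ALDOC, PGAM4, CA9, PDK2, PDK4 and LDHC were named after their values were seen.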

Additional observations from a re-analysis of the deposited data

How the results depend on the processing

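PGAM1 was the only one of the 10 genes at least 1.5-fold lower in the squashed library under all 25 alternatives (-1.45 to -0.70). Counting from 2-fold also gave 1 gene lower and 0 higher with scaling by all UMIs. That call depended on the scaling and on the cells compared. PGAM1 fell short of 2-fold at -0.86 with TMM and -0.84 with median-of-ratios scaling. It also did at -0.94 with mitochondrial and ribosomal protein genes left out of the totals. With scaling by all UMIs it fell short in G1 calls (-0.70), S calls (-0.79) and cells over 6% mitochondrial UMIs (-0.85). The same held in state 3 (-0.71) and state 5 (-0.77), whereas it passed 2-fold in G2/M calls (-1.15) and in states 0, 1 and 2. The number at least 1.5-fold higher was 0 as reported. It was 2 with TMM and with median-of-ratios scaling (GPI and SLC16A3 in each), 1 with the stricter cell filter (SLC16A3), 1 in cells called G1 (GPI) and 2 in cells called S (PFKM and SLC16A3). Among alternatives added after seeing the data it was 1 in cells with at most 6% mitochondrial UMIs and in state 0 (SLC16A3 in each) and 2 in state 2 (PFKM and SLC16A3). The share of all measured genes higher by that size was computed for all-UMI and TMM scaling only. In S calls PFKM and SLC16A3 rested on 27 and 30 control UMIs. In state 2 they rested on 17 and 9, and their intervals included 0 (-0.03 to 1.53 and -0.005 to 2.17). The median of the 10 genes ranged over the alternatives between 0.05 in state 1 and 0.44 in G1 calls, and lay above that of all measured genes in each. The ratio of GPI, GAPDH, LDHA, SLC16A3 and PFKM stayed above 0 in all 25, that of PKM in 24, of ENO1 in 22, of ALDOA in 21 and of PFKP in 19. The lowest value was 0.32 for GPI, 0.18 for PFKM and 0.12 for SLC16A3. It was near 0 for GAPDH (0.005, -0.02 to 0.03, in state 1) and for LDHA (0.002 with the stricter cell filter). The cause of these shifts was not tested. PFKM, ALDOA and SLC16A3 rest on 453 to 620 UMIs a library, which limits what can be seen of them within states. No paired analysis was possible because each group is 1 library and no test was made.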
